A study of Homo sapiens with 10 samples.

Results

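The endoplasmic reticulum (ER) folding and unfolded protein response genes are 30 genes whose products fold proteins in the ER, remove those that fail to fold, carry them out of the ER, or sense and relay ER stress. They were chosen by gene symbol from a fixed list, and all 30 were found among the 52402 symbols of the count data. BEAS2B, a human cell line from normal bronchial epithelium, was transfected with Lipofectamine 2000 and its mRNA was sequenced, with 2 libraries in each of 5 groups. In the miRcontrol group the cells received a scrambled miRNA and are labelled wild type. The miR3124_mimic and miR200b_mimic groups received mimics of miR-3124-5p and miR-200b-3p and are labelled as overexpression, the miR92b_inhibitor group received an inhibitor of miR-92b and is labelled as knockdown, and the 3-miRNA mixed group received all 3 agents together. Each agent was used at 50 nM and RNA was taken after 48 h, while the amount of each agent in the mixture is not given in the sources used here. All groups share the same single cell line and the transfection reagent, so the miRcontrol libraries are transfected cells and not untreated ones. Below, the terms transfected groups and transfected libraries cover those given a mimic, the inhibitor or all 3 agents, and leave out miRcontrol. The agents enter the cells transiently, and the share of cells that took them up was not measured here.

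Proteins that enter the ER through the SEC61 channel are folded by chaperones of the HSP70 and HSP90 families, by the lectin chaperones calnexin and calreticulin, and by protein disulfide isomerases, and proteins that stay misfolded are sent back to the cytosol for degradation (ER-associated degradation, ERAD). When unfolded proteins accumulate, the membrane sensors IRE1 (gene ERN1), PERK (gene EIF2AK3) and ATF6 start the unfolded protein response. IRE1 splices the XBP1 mRNA, ATF6 is cut by Golgi proteases to release a transcription factor, and PERK slows translation and favours ATF4, so that each arm has target genes of its own. Counts per gene show neither the splicing of XBP1 nor the cleavage or phosphorylation of a sensor, so the values below are mRNA levels only.

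The mature sequences of the transfected miRNAs are shown because their seeds (bases 2 to 8, in capitals) decide which words in a 3′UTR they can pair with. They were taken from RefSeq (GRCh38.p14), and both arms of miR-92b are given because the labels name the inhibitor without an arm. The miRNA that the study selected for its panel is miR-92b-5p, while its methods name the inhibitor as miR-92b only.
miR-3124-5p, chr1:248826383-248826403, plus strand: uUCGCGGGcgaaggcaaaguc
miR-200b-3p, chr1:1167160-1167181, plus strand: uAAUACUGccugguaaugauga
miR-92b-5p, chr1:155195196-155195217, plus strand: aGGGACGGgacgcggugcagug
miR-92b-3p, chr1:155195237-155195258, plus strand: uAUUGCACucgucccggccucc
The 4 seeds are different. The word that pairs with the miR-3124-5p seed, CCCGCGA, was in the 3′UTR of 0 of the 30 genes, against 0.617% of 19133 genes with a 3′UTR in GENCODE v29 (the longest coding transcript of each gene). The miR-92b-5p word, CCGTCCC, was also in 0 of 30, against 3.75% of all genes. The miR-200b-3p word, CAGTATT, was in 8 of 30 (26.7%, against 16% of all genes), namely HYOU1, DNAJB9, DNAJC3, PDIA3, ERN1, SYVN1, DERL1 and SSR1, and the miR-92b-3p word, GTGCAAT, was in 4 of 30 (13.3%, against 10.8%), namely DNAJB9, CREB3L2, SEL1L and EDEM1.

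At least 1 of 3 promoter elements was found in 10 of the 27 genes with a promoter entry (37%), against 254 of 27305 genes (0.93%). The genes were listed for their part in ER folding and the unfolded protein response. The higher share therefore describes the choice of genes and was not tested. The ER stress element (ERSE, CCAAT and CCACG with any 9 bases between them) and ERSE-II (ATTGG and CCACG with any 1 base between them) are bound by ATF6 and XBP1 together with NF-Y, and the unfolded protein response element (UPRE, TGACGTGG) by XBP1 and ATF6. Both strands were searched in the 250 bases before each RefSeq start (GRCh38.p14), where 27 of the 30 genes had an entry and DERL1, PDIA3 and SEC24D had none. ERSE was found in 7 of the 27 (25.9%), against 25 of 27305 genes (0.0916%), and ERSE-II in 3 of the 27 (11.1%), against 18 of all genes (0.0659%). UPRE was in 1 of the 27 (3.7%), against 0.78% of all genes, and that copy, in HYOU1, overlaps an ERSE-II of the same promoter. The elements are shown in their own direction, with the fixed letters in capitals and 5 bases on either side, 1 for each gene.
HSPA5, chr9:125241386-125241414, minus strand: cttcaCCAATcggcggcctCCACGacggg
XBP1, chr22:28800598-28800626, minus strand: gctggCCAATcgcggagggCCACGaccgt
CRELD2, chr22:49918549-49918577, minus strand: atggcCCAATccgagttcgCCACGagagg
HSP90B1, chr12:103930211-103930239, plus strand: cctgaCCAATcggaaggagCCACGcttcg
CALR, chr19:12938379-12938407, minus strand: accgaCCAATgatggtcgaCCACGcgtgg
CANX, chr5:179698773-179698801, plus strand: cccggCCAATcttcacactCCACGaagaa
PDIA6, chr2:10812848-10812876, minus strand: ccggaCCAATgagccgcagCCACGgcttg
HERPUD1, chr16:56932020-56932040, plus strand: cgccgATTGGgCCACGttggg
SDF2L1, chr22:21642109-21642129, minus strand: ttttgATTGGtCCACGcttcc
HYOU1, chr11:119057375-119057395, plus strand: ctgggATTGGaCCACGtcacg
HSP90B1 and HYOU1 each hold a further copy. A match shows the letters only and does not show that a factor was bound in these cells. Only exact matches were counted, so a promoter may hold further copies that differ in a letter or lie outside the 250 bases. The whole 250 bases before the start of HSPA5, the gene for the chief ER chaperone, are given as the best-studied case. The letters of the only exact ERSE match found there are in capitals, 48 bases from the start.
HSPA5, chr9:125241344-125241593, minus strand: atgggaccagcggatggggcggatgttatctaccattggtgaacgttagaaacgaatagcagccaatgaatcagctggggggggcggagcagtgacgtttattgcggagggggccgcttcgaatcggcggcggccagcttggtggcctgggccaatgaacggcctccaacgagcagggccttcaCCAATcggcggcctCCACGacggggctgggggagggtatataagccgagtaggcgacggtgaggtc

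Each library held 13587666 to 18503890 counts, and 14884 genes passed the filter on low counts, all 30 of these genes among them. The libraries of a pair differed by more than counting error (chi-square over genes was 1.77 to 2.70 times its degrees of freedom, where counting error alone gives about 1), and whether they came from separate cultures is not given in the sources used here. The p-values below therefore measure the spread between these libraries, which may be technical. Of the cell type markers, KRT8, KRT18 and KRT7 of epithelial cells and VIM, FN1, SPARC and CDH2 of mesenchymal cells were abundant (219 to 4247 CPM). CDH1 and EPCAM, the defining adhesion molecules of epithelia, lay at 10.9 CPM or less in every library but differed between groups. CDH1 was at 0.17 and 0.12 CPM in miRcontrol, 10.9 and 9.03 in miR200b_mimic and 2.54 and 1.94 in the 3-miRNA mixed group. EPCAM was at 0.46 and 0.12, 10.2 and 10.1, and 5.70 and 5.27 CPM in these groups. ZEB1 of the mesenchymal list was at 63.3 and 62.9, 25.9 and 25.6, and 29.7 and 28.5 CPM. KRT5, KRT14 and TP63 of airway basal cells reached at most 0.484 CPM, although ITGB4 and KRT17 of the same list reached 246 and 13.8 CPM. The 5 ciliated, secretory and alveolar markers and the leukocyte markers other than CD68 (17.3 to 40.7 CPM) stayed under the level of KRT5, and of the endothelial markers CDH5 reached 4.03 CPM and the others at most 0.615. The summed level of the 6 epithelial markers was 2220.1 to 2268 CPM in miRcontrol, 2774 to 2781 in miR3124_mimic, 4188 to 4270.1 in miR200b_mimic, 4081 to 4109 in the 3-miRNA mixed group and 2098 to 2188 in miR92b_inhibitor, and that of the 5 mesenchymal markers was 8029.8 to 8046 CPM in miRcontrol and 5657 to 7672 CPM in the transfected libraries. Single markers went against these sums. SPARC had group means of 651 CPM in miRcontrol, 1531 in miR3124_mimic and 1071 in miR200b_mimic. KRT19 had 8.20 CPM in miRcontrol and 0.76 in miR3124_mimic, and was at 2.49 and 2.74 CPM in the 3-miRNA mixed group. The sums also rest on few genes. In miR3124_mimic, VIM was at 827 and 799 CPM against 3894 and 3707 in miRcontrol. FN1 was at 3436 and 3330 CPM in miR3124_mimic against 3181 and 3347 in miRcontrol. The part of these shifts in the values below was not tested.

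Taken per length of the gene's exons, the 30 genes covered a wide range of levels in miRcontrol. CALR, the gene for calreticulin, was highest at 577 ± 11.9 CPM per kb (SD, n = 2), followed by HSP90B1 at 332 ± 4.02 and HSPA5 at 190.3 ± 3.12 CPM per kb. PDIA3, PDIA6 and PDIA4 came next, at 104 ± 3.14, 84.9 ± 0.923 and 75.0 ± 0.74 CPM per kb. The sensors lay low, with ATF6 at 12.9 ± 0.797, EIF2AK3 at 6.74 ± 0.165 and ERN1 at 2.02 ± 0.1 CPM per kb. Neighbours such as CREB3L2 (25.2 ± 0.882) and XBP1 (25.1 ± 1.25), or EIF2AK3 and DNAJB9 (6.71 ± 0.197), did not differ beyond their spread. HYOU1, an ER chaperone of the HSP110 family, was listed at only 0.235 ± 0.0105 CPM per kb and CANX at 14.8 ± 0.138, and both symbols occupy 2 rows of the count data, so that their levels are uncertain. Summed over the 30 genes, the level was 5624 and 5528 CPM for the miRcontrol libraries, 5743 and 5678 for miR3124_mimic, 5453 and 5368 for miR200b_mimic, 5440.4 and 5458.7 for the 3-miRNA mixed group and 4778 and 4595 for miR92b_inhibitor. The miR92b_inhibitor libraries were the lowest of all, and the miR3124_mimic libraries the highest. The sum is weighted to the most abundant genes. Its mean was 5576 CPM in miRcontrol and 5711 in miR3124_mimic, and CALR alone had means of 1098 and 1232. HSP90B1 had 951 and 874 CPM in these groups, and HSPA5 744 and 778.

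Each transfected group was compared with miRcontrol by edgeR's quasi-likelihood test. The same 2 miRcontrol libraries served each of these comparisons, so calls shared by several groups are not independent. The p-values were adjusted by Benjamini-Hochberg over all 14884 genes, and a gene was called at an adjusted p under 0.05. In miR3124_mimic, 12 of the 30 genes rose and 8 fell, where 25.7% of all genes tested rose and 25.3% fell. In miR200b_mimic 11 rose and 10 fell (21.4% and 19.1% of all genes), and in the 3-miRNA mixed group 11 rose and 12 fell (21.5% and 21.1%). The miR92b_inhibitor group was one-sided, with 2 genes higher and 16 lower against 17.5% and 18.2% of all genes, and 23 of the 30 log2 fold changes were below 0. Over the 30 genes, the median log2 fold change was 0.08 in miR3124_mimic, 0.02 in miR200b_mimic, 0.04 in the 3-miRNA mixed group and -0.19 in miR92b_inhibitor, while that of all genes lay within 0.01 of 0 in each comparison. The changes were small. With a fold change cut-off of 2 and an unadjusted p under 0.05, 1 of the 30 genes passed in miR3124_mimic (CRELD2), against 8.81% of all genes, and 0 passed in miR200b_mimic, miR92b_inhibitor and the 3-miRNA mixed group, against 5.7%, 2.63% and 5.42%. Some calls rested on single libraries: without miRcontrol replicate 1, 6 genes rose in miR3124_mimic in place of 12, and without miR200b_mimic replicate 2, 7 rose in miR200b_mimic in place of 11. The 2 genes higher in miR92b_inhibitor (ERN1 and ATF6) became 1 in DESeq2 and without miRcontrol replicate 2 or either miR92b_inhibitor library. Of the calls against miRcontrol, 11 of 20 in miR3124_mimic, 15 of 21 in miR200b_mimic, 12 of 18 in miR92b_inhibitor and 17 of 23 in the 3-miRNA mixed group held in every alternative fit and with each library left out. In bulk RNA, a change in the level per cell cannot be told apart from a change in the share of cells that express a gene.

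**Figure D1:**
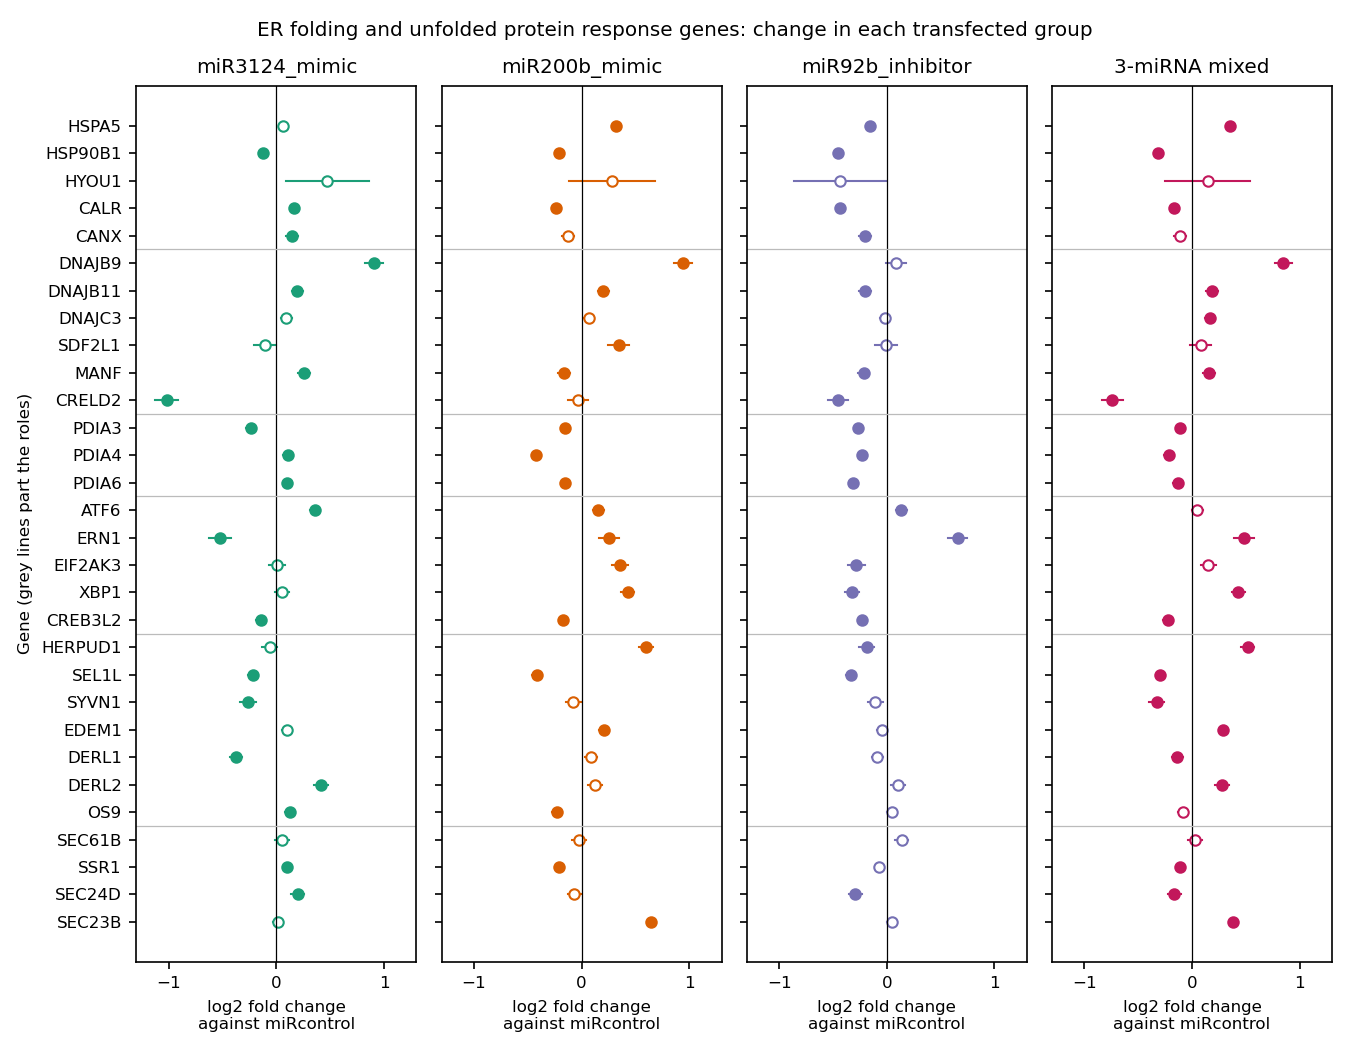
Log2 fold change of each of the 30 genes against miRcontrol (horizontal axis) in the 4 transfected groups, with genes ordered by role and bars for the standard error; filled points have an adjusted p under 0.05. DNAJB9 stands far to the right in 3 panels (0.91, 0.95 and 0.85), CRELD2 far to the left in miR3124_mimic (-1.02), and most points of the miR92b_inhibitor panel lie left of 0.

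Among the chaperones, HSPA5 (BiP, the HSP70 of the ER, which also holds the stress sensors inactive) rose where the miR-200b-3p mimic was present. Its level was 753 and 735 for miRcontrol, 778 and 777 for miR3124_mimic, 922 and 934 for miR200b_mimic, 935 and 968 for the 3-miRNA mixed group and 689 and 647 for miR92b_inhibitor (normalized CPM). Both libraries of miR200b_mimic and of the 3-miRNA mixed group lay above both controls, and both miR92b_inhibitor libraries lay below them. The log2 fold change was 0.32 ± 0.03 in miR200b_mimic (SE, edgeR adjusted p = 1.24e-10), 0.35 ± 0.03 in the 3-miRNA mixed group (edgeR adjusted p = 4.9e-12) and -0.16 ± 0.03 in miR92b_inhibitor (edgeR adjusted p = 0.000362). In miR3124_mimic both libraries lay slightly above the controls, but the log2 fold change of 0.06 did not pass (edgeR adjusted p = 0.123).

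HSP90B1 (GRP94, the HSP90 of the ER) fell in all 4 transfected groups, unlike HSPA5. It was at 959 and 942 for miRcontrol, 876 and 872 for miR3124_mimic, 856 and 790.4 for miR200b_mimic, 769.7 and 759 for the 3-miRNA mixed group and 712 and 677 for miR92b_inhibitor (normalized CPM), so that every transfected library lay below both controls. The fall was greatest in miR92b_inhibitor, with a log2 fold change of -0.45 ± 0.04 (edgeR adjusted p = 2.86e-14), and least in miR3124_mimic, where it fell by 0.12 on the log2 scale. CALR, a lectin chaperone that binds calcium, was at 1114 and 1082 for miRcontrol, 1254 and 1210.4 for miR3124_mimic, 949 and 914 for miR200b_mimic, 983 and 977 for the 3-miRNA mixed group and 830.2 and 792 for miR92b_inhibitor (normalized CPM). It rose in miR3124_mimic by 0.17 on the log2 scale and fell in the other 3 groups, most in miR92b_inhibitor (-0.44 ± 0.03, edgeR adjusted p = 2.21e-14). CANX, the membrane-bound relative of CALR, fell by 0.20 in miR92b_inhibitor and rose by 0.15 in miR3124_mimic, the fall being lost without miR92b_inhibitor replicate 2 and the rise in DESeq2 and without miRcontrol replicate 1, miRcontrol replicate 2 or miR3124_mimic replicate 1. HYOU1 had a level near 1 CPM and no log2 fold change that passed the test (-0.44 to 0.47).

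The cochaperones held both the largest rise and the largest fall. DNAJB9 (ERdj4), a DnaJ protein that brings BiP to IRE1 and to ERAD substrates, was at 18.6 and 17.8 for miRcontrol, 34.1 and 34.3 for miR3124_mimic, 35.1 and 35.2 for miR200b_mimic, 33.6 and 32.0 for the 3-miRNA mixed group and 19.02 and 19.7 for miR92b_inhibitor (normalized CPM). In both mimic groups and the 3-miRNA mixed group every library lay well above both controls, with group means 1.88, 1.93 and 1.80 times that of miRcontrol, and in miR92b_inhibitor the libraries lay just above the controls. The log2 fold changes were 0.91 ± 0.08, 0.95 ± 0.08 and 0.85 ± 0.08 in these 3 groups (edgeR adjusted p = 3.18e-13, 1.78e-13 and 3.19e-12) and 0.09 in miR92b_inhibitor (edgeR adjusted p = 0.496). Leaving out any library of the groups compared kept the 3 rises between 0.81 and 0.98. DNAJB9 rose in miR200b_mimic and its 3′UTR holds the miR-200b-3p word.

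CRELD2, an ER-resident protein with disulfide isomerase activity that is induced by ER stress, went the other way. Its level was 23.9 and 21.8 for miRcontrol, 12.0 and 10.6 for miR3124_mimic, 23.5 and 21.4 for miR200b_mimic, 14.2 and 13.2 for the 3-miRNA mixed group and 17.2 and 16.2 for miR92b_inhibitor (normalized CPM). The libraries of miR3124_mimic, miR92b_inhibitor and the 3-miRNA mixed group lay below both controls, whereas those of miR200b_mimic overlapped the controls. It changed by -1.02 ± 0.11 on the log2 scale in miR3124_mimic (edgeR adjusted p = 1.77e-11), by -0.74 ± 0.10 in the 3-miRNA mixed group (edgeR adjusted p = 2.59e-08) and by -0.45 ± 0.10 in miR92b_inhibitor (edgeR adjusted p = 0.000195), against -0.03 in miR200b_mimic. DNAJB11 (ERdj3), which hands unfolded proteins to BiP, rose in both mimic groups and the 3-miRNA mixed group by 0.18 to 0.20 and fell by 0.20 in miR92b_inhibitor, and each of these calls was lost without 1 of the libraries (miRcontrol replicate 1 for the rises, miRcontrol replicate 2 for the fall, or replicate 2 of miR200b_mimic, miR92b_inhibitor or the mixed group). MANF, a secreted ER protein that stabilizes BiP with its clients, rose in miR3124_mimic (0.26) and the 3-miRNA mixed group (0.16) and fell in miR200b_mimic by 0.16 and in miR92b_inhibitor by 0.22. Only its rise in miR3124_mimic held with each library left out. Both falls of MANF were lost without miRcontrol replicate 1, and each without replicate 2 of its own transfected group. The rise in the mixed group was lost without miRcontrol replicate 2 or replicate 1 of the mixed group. The fall in miR200b_mimic and the rise in the mixed group were also lost in DESeq2. SDF2L1, which works with DNAJB11 on BiP clients, rose in miR200b_mimic (0.34), and this call was lost without miRcontrol replicate 2 or miR200b_mimic replicate 2. DNAJC3 (p58IPK), a cochaperone of BiP, rose in the 3-miRNA mixed group (0.16).

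**Figure D2:**
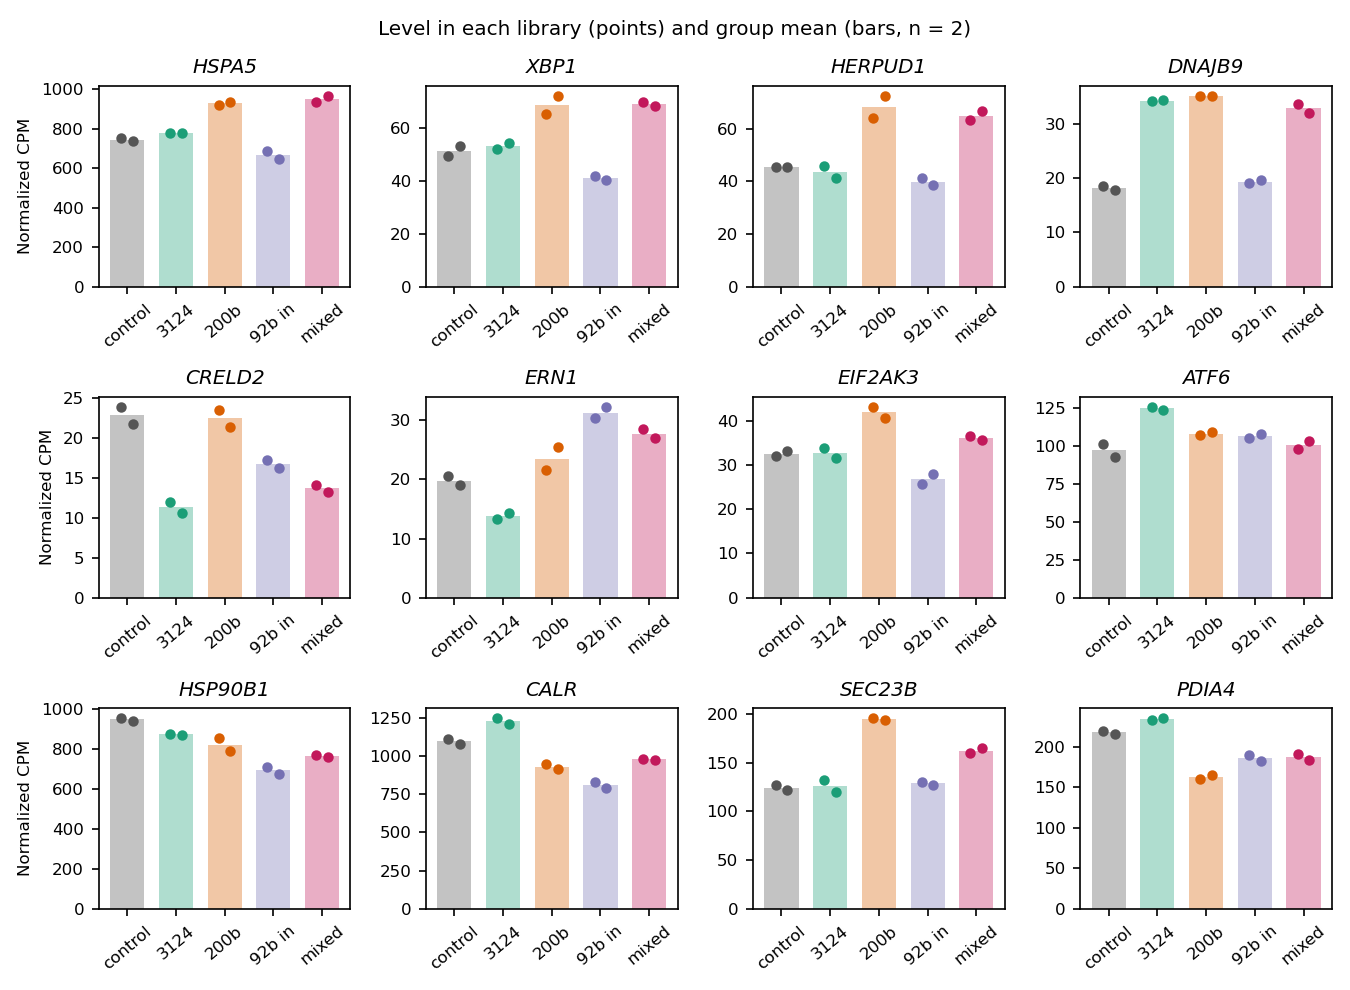
Normalized CPM of 12 of the genes in each library (points) and the mean of each group (bars, n = 2 libraries); the 5 groups are, from left to right, miRcontrol, miR3124_mimic, miR200b_mimic, miR92b_inhibitor and the 3-miRNA mixed group. HSPA5, XBP1 and HERPUD1 are high in miR200b_mimic and the 3-miRNA mixed group and low in miR92b_inhibitor, and ERN1 is highest in miR92b_inhibitor (30.3 and 32.3 CPM).

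The 3 protein disulfide isomerases, which form and rearrange disulfide bonds, all fell in miR200b_mimic, miR92b_inhibitor and the 3-miRNA mixed group. PDIA4 (ERp72) was at 219 and 216 for miRcontrol, 233 and 236 for miR3124_mimic, 160.0 and 165 for miR200b_mimic, 191 and 184 for the 3-miRNA mixed group and 189.7 and 182 for miR92b_inhibitor (normalized CPM). It fell most in miR200b_mimic, where the log2 fold change was -0.42 ± 0.04 (edgeR adjusted p = 4.91e-12), and the libraries did not overlap with the controls in any group. PDIA3 (ERp57), the partner of CALR and CANX, fell in all 4 transfected groups, by 0.11 in the 3-miRNA mixed group to 0.27 in miR92b_inhibitor. The fall of PDIA3 in the mixed group was lost without miRcontrol replicate 1 or 3-miRNA mixed replicate 1. PDIA6 (P5) fell by 0.31 in miR92b_inhibitor and by 0.15 in miR200b_mimic, the latter a call lost without miR200b_mimic replicate 2. In miR3124_mimic, PDIA4 and PDIA6 rose by only 0.11 and 0.10, and both calls were lost when any library of that comparison was left out.

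The sensors did not move as a group. ERN1, the gene for IRE1, was at 20.5 and 19.1 for miRcontrol, 13.2 and 14.3 for miR3124_mimic, 21.5 and 25.4 for miR200b_mimic, 28.5 and 26.9 for the 3-miRNA mixed group and 30.3 and 32.3 for miR92b_inhibitor (normalized CPM). Its libraries lay below both controls in miR3124_mimic and above both in the other 3 groups. The log2 fold change was -0.52 ± 0.10 in miR3124_mimic (edgeR adjusted p = 2.59e-05), 0.66 ± 0.09 in miR92b_inhibitor (edgeR adjusted p = 4.2e-08) and 0.48 ± 0.09 in the 3-miRNA mixed group (edgeR adjusted p = 1.38e-05). The rise of 0.26 in miR200b_mimic was not firm, since it fell to 0.12 without miR200b_mimic replicate 2 (edgeR adjusted p = 0.47), was also lost without miRcontrol replicate 2, and did not pass the DESeq2 test (adjusted p = 0.11). EIF2AK3, the gene for PERK, was at 32.0 and 33.1 for miRcontrol, 33.9 and 31.7 for miR3124_mimic, 43.2 and 40.6 for miR200b_mimic, 36.6 and 35.7 for the 3-miRNA mixed group and 25.6 and 27.9 for miR92b_inhibitor (normalized CPM). It rose in miR200b_mimic (0.36 ± 0.07, edgeR adjusted p = 6.56e-05) and was lower in miR92b_inhibitor (-0.28 ± 0.08, edgeR adjusted p = 0.00286, and 0.066 without miR92b_inhibitor replicate 1). The miR3124_mimic libraries overlapped the controls for EIF2AK3, and in the 3-miRNA mixed group the difference did not pass (edgeR adjusted p = 0.0894).

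ATF6, the sensor that is itself cut into a transcription factor, was at 101 and 92.8 for miRcontrol, 126 and 124 for miR3124_mimic, 107 and 109 for miR200b_mimic, 97.7 and 103 for the 3-miRNA mixed group and 105 and 108 for miR92b_inhibitor (normalized CPM). It rose in miR3124_mimic by 0.36 ± 0.05 on the log2 scale (edgeR adjusted p = 1.34e-08), while the rises of 0.16 in miR200b_mimic and 0.14 in miR92b_inhibitor were both lost without miRcontrol replicate 2. The first was also lost without miR200b_mimic replicate 2 and the second in DESeq2 and without either miR92b_inhibitor library. The 3-miRNA mixed libraries overlapped the controls. XBP1, the target of IRE1 splicing, was at 49.3 and 52.9 for miRcontrol, 52.0 and 54.0 for miR3124_mimic, 65.1 and 72.1 for miR200b_mimic, 69.6 and 68.3 for the 3-miRNA mixed group and 41.6 and 40.2 for miR92b_inhibitor (normalized CPM). Total XBP1 mRNA rose in miR200b_mimic (0.43 ± 0.06, edgeR adjusted p = 7.88e-08) and in the 3-miRNA mixed group (0.43 ± 0.06, edgeR adjusted p = 3.89e-08) and fell in miR92b_inhibitor (-0.32 ± 0.06, edgeR adjusted p = 7.27e-05). In miR3124_mimic its libraries overlapped the controls. CREB3L2, an ER-membrane transcription factor cut like ATF6 that drives genes of secretory transport, fell in all 4 transfected groups, by 0.14 in miR3124_mimic (lost without miRcontrol replicate 2) to 0.23 in miR92b_inhibitor.

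In the ERAD group, HERPUD1 and SEL1L moved in opposite directions in miR200b_mimic and the 3-miRNA mixed group. HERPUD1, a stress-induced scaffold of the ubiquitin ligase complex, was at 45.3 and 45.5 for miRcontrol, 46.0 and 41.2 for miR3124_mimic, 64.2 and 72.6 for miR200b_mimic, 63.3 and 66.6 for the 3-miRNA mixed group and 41.3 and 38.6 for miR92b_inhibitor (normalized CPM). Every library of miR200b_mimic and of the 3-miRNA mixed group lay above both controls, with log2 fold changes of 0.60 ± 0.06 and 0.52 ± 0.06 (edgeR adjusted p = 1.09e-10 and 3.28e-09). In miR92b_inhibitor it fell by 0.19, a call that was lost in DESeq2 and without either miRcontrol library or miR92b_inhibitor replicate 2. SEL1L, the adaptor of the ubiquitin ligase, was at 161 and 156 for miRcontrol, 138 and 134 for miR3124_mimic, 119 and 117 for miR200b_mimic, 130.5 and 128 for the 3-miRNA mixed group and 124 and 127 for miR92b_inhibitor (normalized CPM) and lower in every transfected library than in the controls. It fell by 0.42 in miR200b_mimic (edgeR adjusted p = 4.11e-11), by 0.33 in miR92b_inhibitor (edgeR adjusted p = 1.71e-08), by 0.29 in the 3-miRNA mixed group and by 0.22 in miR3124_mimic. SYVN1 (HRD1), the ligase itself, fell in miR3124_mimic by 0.26 and in the 3-miRNA mixed group by 0.33, the first being lost without miRcontrol replicate 1 or miR3124_mimic replicate 2.

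The derlins, channel proteins through which substrates leave the ER, parted in miR3124_mimic. DERL1 was at 75.5 and 75.3 for miRcontrol, 60.4 and 56.2 for miR3124_mimic, 82.3 and 78.2 for miR200b_mimic, 67.8 and 69.4 for the 3-miRNA mixed group and 70.4 and 71.5 for miR92b_inhibitor (normalized CPM), which gave a log2 fold change in miR3124_mimic of -0.37 ± 0.06 (edgeR adjusted p = 1.41e-07). DERL2 was at 50.5 and 46.3 for miRcontrol, 60.2 and 68.7 for miR3124_mimic, 52.0 and 53.6 for miR200b_mimic, 60.3 and 57.3 for the 3-miRNA mixed group and 51.3 and 53.0 for miR92b_inhibitor (normalized CPM), which gave a log2 fold change in miR3124_mimic of 0.42 ± 0.06 (edgeR adjusted p = 2.64e-07). In that group both DERL1 libraries lay below the controls and both DERL2 libraries above them. In the 3-miRNA mixed group DERL2 rose by 0.28 and DERL1 fell by 0.14, the latter a call lost in DESeq2, under TMM scaling and when any library of the comparison was left out. EDEM1, a lectin that marks misfolded glycoproteins, rose in miR200b_mimic (0.21) and the 3-miRNA mixed group (0.29), and OS9, a lectin that delivers them to SEL1L, fell in miR200b_mimic by 0.23. The rise of OS9 in miR3124_mimic (0.12) was lost in DESeq2 and without miRcontrol replicate 1 or miR3124_mimic replicate 2.

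Of the genes of translocation and export, SEC23B, an inner coat protein of the COPII vesicles that leave the ER, changed most. It was at 127 and 122 for miRcontrol, 132 and 119.7 for miR3124_mimic, 196 and 193 for miR200b_mimic, 159.6 and 165 for the 3-miRNA mixed group and 130.4 and 127 for miR92b_inhibitor (normalized CPM). Both miR200b_mimic libraries and both libraries of the 3-miRNA mixed group lay above the controls, with log2 fold changes of 0.65 ± 0.04 and 0.38 ± 0.04 (edgeR adjusted p = 1.01e-16 and 8.59e-10). Its paralog SEC23A, which is not one of the 30 genes, was at 174 and 173 for miRcontrol, 255 and 236 for miR3124_mimic, 69.0 and 67.5 for miR200b_mimic, 120.1 and 118 for the 3-miRNA mixed group and 146 and 142 for miR92b_inhibitor (normalized CPM). SEC23A changed by -1.35 ± 0.05 in miR200b_mimic (edgeR adjusted p = 2.09e-27), -0.54 in the 3-miRNA mixed group and 0.50 in miR3124_mimic, so that SEC23A and SEC23B moved in opposite directions in both groups given the miR-200b-3p mimic. SEC24D, a cargo-binding coat protein, fell in miR92b_inhibitor by 0.29. Its rise of 0.20 in miR3124_mimic was lost without miRcontrol replicate 1 or miR3124_mimic replicate 2, and its fall of 0.16 in the mixed group in DESeq2 and without miRcontrol replicate 2 or either mixed library. SSR1, a subunit of the translocon-associated complex, fell in miR200b_mimic by 0.21. The smaller calls of SSR1 in miR3124_mimic (0.10) and the mixed group (-0.11) were each lost without 1 library (miRcontrol replicate 2 and miRcontrol replicate 1, among others). SEC61B, a subunit of the channel, had log2 fold changes of -0.02 to 0.14 and no call.

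The transfected groups were also compared with each other, since a call in one group and none in another does not show a difference. Between the 3-miRNA mixed group and miR3124_mimic, 18 of the 30 genes differed (9 higher and 9 lower in the mixed group), where 49.1% of all genes did. ERN1 was 1.01 ± 0.10 higher on the log2 scale in the mixed group (edgeR adjusted p = 2.27e-12), and HERPUD1 was 0.58 ± 0.06 higher (edgeR adjusted p = 2.02e-10). Against miR200b_mimic, 13 of the 30 differed (6 higher and 7 lower, where 38.6% of all genes differed), among them CRELD2 at -0.71 ± 0.10 (edgeR adjusted p = 1.59e-07), and HSPA5 and XBP1 differed by 0.04 and 0.00 without passing the test. Against miR92b_inhibitor, 15 were higher and 3 lower in the mixed group (39.6% of all genes differed), led by DNAJB9 (0.76 ± 0.08, edgeR adjusted p = 5.35e-11) and XBP1 (0.75 ± 0.06, edgeR adjusted p = 2.02e-14). Of these counts, the 6 higher and 7 lower against miR200b_mimic became 2 and 4 without 3-miRNA mixed replicate 2, while the 3 lower against miR92b_inhibitor became 1 without 3-miRNA mixed replicate 1, without 3-miRNA mixed replicate 2 or without miR92b_inhibitor replicate 1. The count of 6 also became 3 without 3-miRNA mixed replicate 1 or without miR200b_mimic replicate 2, 3 in DESeq2 or without a filter on low counts, and 10 with library totals. The 3 lower against miR92b_inhibitor became 0 in DESeq2.

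Among the single agents, 23 of the 30 genes differed between miR3124_mimic and miR200b_mimic (12 higher and 11 lower in miR3124_mimic), where 57.8% of all genes did. Lower in miR3124_mimic were CRELD2 (-0.99 ± 0.11, edgeR adjusted p = 5.61e-11), ERN1 (-0.78) and HERPUD1 (-0.66), and higher were PDIA4 (0.53 ± 0.04, edgeR adjusted p = 1.67e-15) and MANF (0.42). Between miR3124_mimic and miR92b_inhibitor, 18 were higher and 3 lower in miR3124_mimic (58.8% of all genes differed), and ERN1 showed the largest difference, -1.18 ± 0.09 (edgeR adjusted p = 4.51e-15). Between miR200b_mimic and miR92b_inhibitor, 16 were higher and 5 lower in miR200b_mimic (50.5% of all genes differed), and XBP1 (0.75), HERPUD1 (0.78), EIF2AK3 (0.64) and HSPA5 (0.47) were all higher in miR200b_mimic (edgeR adjusted p = 2.59e-14, 3.55e-14, 5.34e-10 and 4.55e-16).

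The genes were then set against the promoter elements shown above. In miR92b_inhibitor, all 7 genes with an ERSE fell (-0.45 to -0.16 on the log2 scale, median -0.32), and of the 3 with an ERSE-II, HERPUD1 fell while SDF2L1 and HYOU1 were lower without passing the test. Of the 17 genes with an entry and no exact match to either element, 6 fell and 2 rose in the same group. Their median was -0.05, and of all genes 18.2% fell and 17.5% rose. In the other groups the ERSE genes were split: 3 rose and 2 fell in miR3124_mimic (25.7% and 25.3% of all genes), 2 rose and 3 fell in miR200b_mimic (21.4% and 19.1%). In the 3-miRNA mixed group 2 rose and 4 fell (21.5% and 21.1%). HSPA5 and XBP1 were the ones that rose in miR200b_mimic and the mixed group, while HSP90B1, CALR and PDIA6, which hold the same element, fell there. No test was run on these sets, and the difference between them was not tested.

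**Figure D3:**
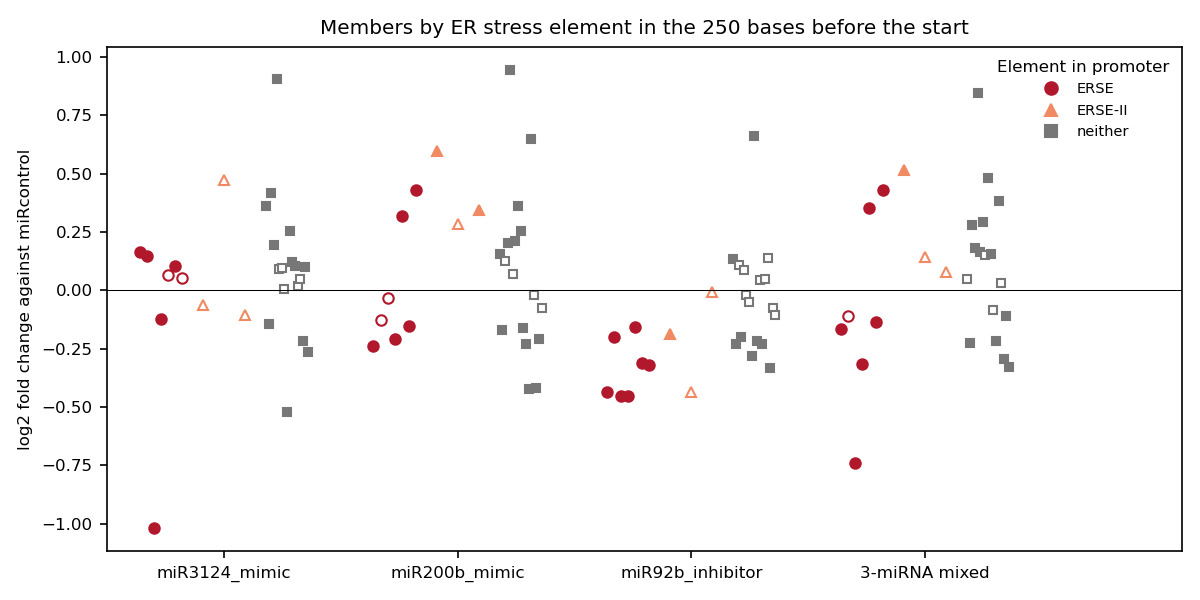
Log2 fold change against miRcontrol (vertical axis) of the 27 genes with a promoter entry in each transfected group, by the element found in the 250 bases before the start (red circles ERSE, orange triangles ERSE-II, grey squares neither); filled points have an adjusted p under 0.05. All 7 red circles of miR92b_inhibitor lie below 0 and are filled, while in the other 3 groups they lie on both sides of 0.

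The miR-200b-3p word was set against the changes in miR200b_mimic. Of the 8 genes with the word, 2 rose (DNAJB9 and ERN1), 2 fell (PDIA3 and SSR1) and 4 did not pass, with a median log2 fold change of 0.08. Of 116 other genes of the ER, the stress response and cytosolic heat shock that were tested, 24 held the word, of which 15 fell and 4 rose in miR200b_mimic, with a median of -0.19, where 19.1% of all genes fell. SEC23A, the paralog of SEC23B, holds 2 copies 92 bases apart in its 3′UTR. Among the 8 genes above, DNAJC3, ERN1 and DERL1 also hold 2 copies each. None of them fell in miR200b_mimic, with log2 fold changes of 0.07, 0.26 and 0.09. The number of copies was not tested against the changes. The copies of SEC23A are shown with those of PDIA3, SSR1 and DNAJB9 (GRCh38, GENCODE v29), the word in capitals.
SEC23A, chr14:39032367-39032395, minus strand: attatatccttCAGTATTttaacactatt
SEC23A, chr14:39032275-39032303, minus strand: tcttattgaaaCAGTATTatataatgttt
PDIA3, chr15:43772345-43772373, plus strand: ctatataattaCAGTATTtagctgtcaat
SSR1, chr6:7289302-7289330, minus strand: tagaattgtttCAGTATTttgctgctgtt
DNAJB9, chr7:108573623-108573651, plus strand: actaatatcacCAGTATTattaccaagaa
A matching word is a description of the sequence and does not show that the miRNA was bound there. Of the 4 genes with the miR-92b-3p word, 2 fell in miR92b_inhibitor (CREB3L2 and SEL1L) and the other 2 did not pass the test. Of all genes, 18.2% fell and 17.5% rose there. Of the same 4, 2 fell and 1 rose in miR3124_mimic (25.3% and 25.7% of all genes). In miR200b_mimic 2 fell and 2 rose (19.1% and 21.4%), as did 2 and 2 in the 3-miRNA mixed group (21.1% and 21.5%).

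The other genes of the pathway were read from the same fit. The genes of the ATF4 arm, which act downstream of PERK and of other stress kinases, were mostly higher in miR92b_inhibitor, where 8 of the 11 rose and 2 fell, with a median log2 fold change of 0.63. In the same group 4 of the 5 ER chaperones fell, while 17.5% of all genes rose and 18.2% fell. No test compared these lists. PPP1R15A (GADD34), which ends the translation block set by PERK, was at 142 and 135 CPM in miRcontrol and 345 and 361 CPM in miR92b_inhibitor, a log2 fold change of 1.35 ± 0.04 (edgeR adjusted p = 1.44e-29). DDIT3 (CHOP), a transcription factor of prolonged stress, went from 11.6 and 12.5 to 31.5 and 32.0 CPM in the same group, a log2 fold change of 1.40 ± 0.10 (edgeR adjusted p = 1.71e-15). In the 3-miRNA mixed group 10 of the 11 rose and 1 fell (median 0.64, against 21.5% and 21.1% of all genes), led by CHAC1 (1.53 ± 0.17, edgeR adjusted p = 2.57e-10) and PPP1R15A (1.07 ± 0.04, edgeR adjusted p = 2.73e-26). In miR200b_mimic 7 rose and 2 fell (median 0.32, against 21.4% and 19.1% of all genes), with TRIB3 at 0.89 ± 0.06 and SESN2 at 0.79 ± 0.08 (edgeR adjusted p = 4.5e-18 and 6.14e-11). In miR3124_mimic 2 rose and 5 fell (median -0.05, against 25.7% and 25.3% of all genes), the 2 being VLDLR (0.66 ± 0.07, edgeR adjusted p = 1.8e-10) and CHAC1 (0.58 ± 0.19, edgeR adjusted p = 0.0108).

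**Figure D4:**
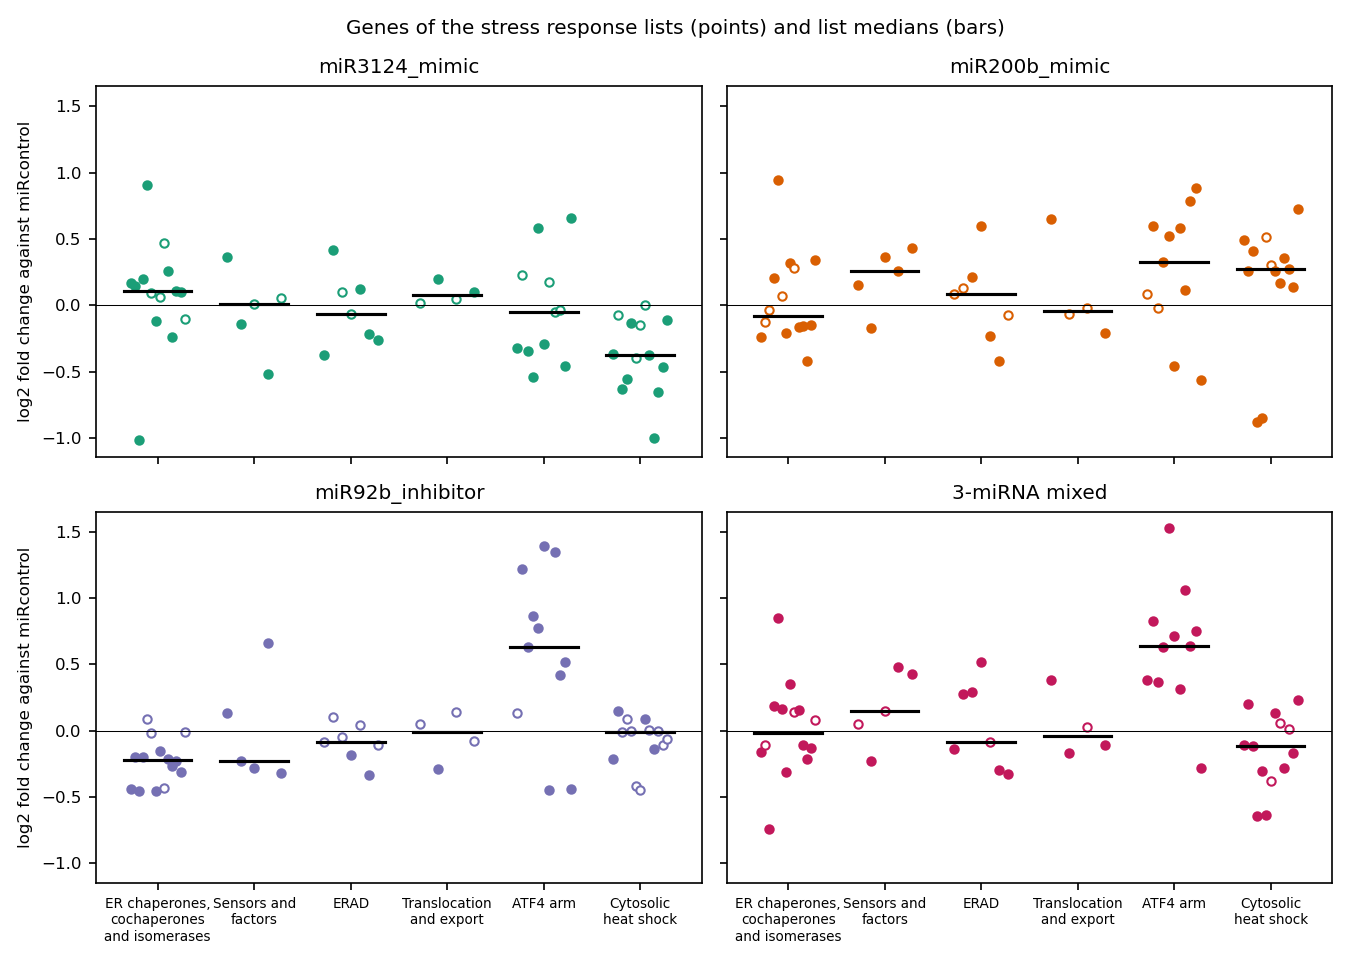
Log2 fold change against miRcontrol (vertical axis) of the 30 genes by role and of the ATF4 arm and cytosolic heat shock genes in the 4 transfected groups, with points for genes (filled where the adjusted p is under 0.05) and black bars for medians. In miR92b_inhibitor the chaperones, cochaperones and isomerases lie mostly below 0 while the ATF4 arm has a median of 0.63.

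Among other regulators of the response, MBTPS2, the site-2 protease that releases ATF6 and the CREB3 factors from the Golgi membrane, was at 47.1 and 47.4 CPM in miRcontrol and 22.6 and 20.8 CPM in miR200b_mimic, a log2 fold change of -1.13 ± 0.08 (edgeR adjusted p = 3.21e-17), and it changed by -0.39 ± 0.07 in the 3-miRNA mixed group (edgeR adjusted p = 3.51e-06). CREB3 rose in miR200b_mimic and the 3-miRNA mixed group (0.41 ± 0.06 and 0.42 ± 0.06, edgeR adjusted p = 1.3e-07 and 3.45e-08). CREB3L1 rose in miR3124_mimic (0.82 ± 0.14) and fell in miR92b_inhibitor by 0.55 (edgeR adjusted p = 1.84e-06 and 0.00496). TMBIM6 (BAX inhibitor 1), an ER membrane protein that restrains cell death, rose in miR3124_mimic by 0.42, and WFS1 fell in miR92b_inhibitor by 0.32. Of the 7 genes of this list that were tested, 3 rose and 1 fell in miR3124_mimic, 2 and 2 in miR200b_mimic, 2 and 2 in the 3-miRNA mixed group and 1 and 3 in miR92b_inhibitor. Of all genes, 25.7% rose and 25.3% fell in miR3124_mimic, and 21.4% rose and 19.1% fell in miR200b_mimic. The shares were 21.5% and 21.1% for the 3-miRNA mixed group and 17.5% and 18.2% for miR92b_inhibitor.

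In the list of 16 other COPII and retrieval genes, KDELR1, a receptor that returns chaperones with a KDEL tail to the ER, was at 201 and 203 for miRcontrol, 64.1 and 60.4 for miR3124_mimic, 199 and 201 for miR200b_mimic, 83.4 and 83.0 for the 3-miRNA mixed group and 162 and 156 for miR92b_inhibitor (normalized CPM). It changed by -1.70 ± 0.05 in miR3124_mimic, -1.28 ± 0.04 in the 3-miRNA mixed group and -0.34 ± 0.04 in miR92b_inhibitor (edgeR adjusted p = 3.63e-32, 4.29e-28 and 3.06e-09). KDELR3 fell in miR200b_mimic, miR92b_inhibitor and the 3-miRNA mixed group by 0.79, 1.01 and 0.72, and SEC16A, which organizes ER exit sites, fell in miR3124_mimic by 1.11. Of the 16, 5 fell and 3 rose in miR3124_mimic, 5 fell and 2 rose in miR200b_mimic, 7 fell and 1 rose in the 3-miRNA mixed group, and 8 fell and 2 rose in miR92b_inhibitor. Of all genes, 25.3% fell and 25.7% rose in miR3124_mimic, near the counts of this list. The shares that fell and rose were 19.1% and 21.4% for miR200b_mimic, 21.1% and 21.5% for the 3-miRNA mixed group, and 18.2% and 17.5% for miR92b_inhibitor.

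The remaining ER lists are to be read against the shares of all genes that rose and fell. These were 25.7% and 25.3% for miR3124_mimic and 21.4% and 19.1% for miR200b_mimic. They were 21.5% and 21.1% for the 3-miRNA mixed group and 17.5% and 18.2% for miR92b_inhibitor. Of 12 other oxidoreductases, 3 rose and 4 fell in miR3124_mimic, 5 and 5 in miR200b_mimic, 4 and 4 in the 3-miRNA mixed group and 1 and 6 in miR92b_inhibitor. TXNDC5 (ERp46) fell in both mimic groups and the 3-miRNA mixed group by 0.72, 0.47 and 0.57, and P4HB, the gene for protein disulfide isomerase, fell in miR92b_inhibitor by 0.33. PDIA5 rose in miR3124_mimic (0.47) and the 3-miRNA mixed group (0.52), and ERP44 rose in miR200b_mimic (0.41). Of 16 other folding genes, 6 rose and 5 fell in miR3124_mimic, 3 and 7 in miR200b_mimic and 2 and 5 in the 3-miRNA mixed group, while in miR92b_inhibitor 6 fell and the other 10 did not pass the test. FKBP14, a prolyl isomerase of the ER, fell in miR3124_mimic, miR92b_inhibitor and the 3-miRNA mixed group by 0.31, 0.36 and 0.48. Of 18 other ERAD genes, 6 rose and 3 fell in miR3124_mimic, 5 and 7 in miR200b_mimic, 5 and 8 in the 3-miRNA mixed group and 2 and 4 in miR92b_inhibitor. EDEM3 rose in miR3124_mimic (0.60), UBXN8 and MAN1B1 fell in miR200b_mimic by 0.83 and 0.49, and VCP, the ATPase that pulls substrates out of the ER membrane, fell in miR92b_inhibitor by 0.40. Of 23 other translocation genes, 9 rose and 3 fell in miR3124_mimic, 9 and 7 in miR200b_mimic, 8 and 5 in the 3-miRNA mixed group and 7 and 4 in miR92b_inhibitor. SRPRA, a subunit of the receptor for the signal recognition particle, rose in both mimic groups and the 3-miRNA mixed group by 0.79, 0.60 and 0.70.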

How the data were processed

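Poly(A)-selected RNA of BEAS2B cells was sequenced from stranded libraries (NEBNext Ultra II Directional), 2 for each of 5 groups, with groups and replicate numbers taken from the labels. The authors deposited raw read counts per gene symbol, not normalized, in 58173 rows with 13587666 to 18503890 counts per library. The submitters' processing notes name TopHat and the genome build GRCh38, while the counting tool and its annotation are not given in the sources used here. Here, rows that repeat a symbol (5771) were added to it, which gave 52402 symbols.

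The counts were analysed in R 4.3.3 with edgeR 4.0.16 (limma 3.58.1): filterByExpr by group left 14884 genes, RLE factors were computed, and all 10 libraries entered 1 quasi-likelihood fit (glmQLFit, glmQLFTest) without covariates. Two-sided p-values were adjusted by Benjamini-Hochberg over all genes tested. Levels are CPM, the counts scaled by RLE-normalized library sizes, and levels per kb divide by the union of a gene's exons in GENCODE v29. The same fit was also run on simulated counts, whose levels, library sizes and common spread were taken from the fit of the real counts. Alternatives were TMM factors, library totals, DESeq2 1.42.0, edgeR's exact test, a fit on the compared groups only, no filter, at least 10 counts in every library, the highest row of a repeated symbol, a replicate block, and each library left out in turn.

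The genes, the other lists, the tests and the alternatives were chosen with earlier results of these data known. Values per library are given for HSPA5, XBP1, ATF6, ERN1 and EIF2AK3 and, in each comparison with miRcontrol, for up to 5 of the 30 genes with the largest log2 fold change among those called, with a mean of at least 1 CPM and no overlap with the controls. At most 2 genes per list and comparison were named from the other lists by the same order, and the further values of SEC23A were added after they were seen. Promoter and miRNA sequences are from RefSeq (GRCh38.p14). Protein sequences were not used here.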

Additional observations from a re-analysis of the deposited data

How the results depend on the processing

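Of the counts of genes called, 175 under another normalization, tool, filter or fit stayed within 1.5 times the reported count and 5 did not. Genes higher in miR92b_inhibitor than in miRcontrol numbered 1 in DESeq2 in place of 2. Genes higher in the 3-miRNA mixed group than in miR200b_mimic numbered 10 with library totals, 3 in DESeq2 and 3 without a filter, in place of 6, and those lower than in miR92b_inhibitor 0 in DESeq2 in place of 3. The cause was not tested. With a library left out, higher and lower counts against miRcontrol ran from 6 to 12 and 7 to 8 in miR3124_mimic, 7 to 11 and 8 to 10 in miR200b_mimic, 1 to 2 and 12 to 16 in miR92b_inhibitor, and 10 to 11 and 8 to 12 in the 3-miRNA mixed group. For the mixed group they ran from 8 to 10 and 9 to 10 against miR3124_mimic, 2 to 6 and 4 to 7 against miR200b_mimic, and 12 to 15 and 1 to 3 against miR92b_inhibitor. They ran from 11 to 12 and 9 to 12 for miR3124_mimic against miR200b_mimic, 16 to 18 and 3 to 4 for miR3124_mimic against miR92b_inhibitor, and 14 to 17 and 4 to 5 for miR200b_mimic against miR92b_inhibitor. Where a group was left with 1 library, its spread was taken from the other groups. No log2 fold change of the 30 genes against miRcontrol turned its direction while called. Over the 30 genes and the 4 comparisons with miRcontrol, calls were lost more often without a library than under the other settings. The losses without a library are given above for each comparison. The other settings lost 16 calls and gained 6.

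Same-numbered libraries showed no shared shift: their deviations from the group means correlated between groups at -0.0365 to 0.0445 over 12900 genes. These values cannot show whether such libraries were prepared together, which is not given in the sources used here. With a replicate block the counts were as reported, except for 7 in place of 6 genes higher in the 3-miRNA mixed group than in miR200b_mimic and 19 in place of 18 higher in miR3124_mimic than in miR92b_inhibitor. HYOU1, near 1 CPM, had no difference that was detectable against miRcontrol at this depth.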

Other observations

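The list of cytosolic heat shock genes, whose products fold proteins outside the ER, was read beside the ER genes. It also holds HSPD1, whose product is mitochondrial. Of the 13 tested, 9 fell and the other 4 did not pass the test in miR3124_mimic (median log2 fold change -0.37), 9 rose and 2 fell in miR200b_mimic (0.28), 2 rose and 2 fell in miR92b_inhibitor (-0.01) and 3 rose and 7 fell in the 3-miRNA mixed group (-0.12). Of all genes, 25.3% fell in miR3124_mimic, and 21.4% rose and 19.1% fell in miR200b_mimic. In miR92b_inhibitor 17.5% rose and 18.2% fell, near the counts of this list, and in the 3-miRNA mixed group 21.5% rose and 21.1% fell. In miR3124_mimic, HSPB1, a small heat shock protein, went from 104 and 103 CPM to 52.1 and 51.5 CPM, and HSPD1, the mitochondrial chaperonin, from 607 and 602 to 387 and 379.8 CPM. The 2 that fell in miR200b_mimic were the cytosolic HSP90 genes, HSP90AA1 from 2989 and 2921 to 1703 and 1514 CPM and HSP90AB1 from 2144 and 2131 to 1236 and 1131 CPM, with log2 fold changes of -0.88 ± 0.04 and -0.85 ± 0.03 (edgeR adjusted p = 1.07e-24 and 3.03e-25). HSP90AA1 also changed by -0.64 in the 3-miRNA mixed group. In miR92b_inhibitor, BAG3 changed by -0.21 and DNAJA1 by 0.15. HSPA1A and HSPA1B are near-identical copies listed in 5 rows each, so their counts are uncertain.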
